A study of Mus musculus with 8 samples.

Results

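The 5 genes examined encode inhibitors of the cyclin-dependent kinases (CDKs): Cdkn1a, Cdkn1b and Cdkn1c of the Cip/Kip family, and Cdkn2c and Cdkn2d of the INK4 family. They were taken by symbol from the deposited gene table, and all 5 were found among its 11855 entries. The cells were haematopoietic stem cells (HSCs), from which all blood lineages are renewed throughout life. They were sorted from the bone marrow of 4 wild type and 4 Nupr1-/- mice of the C57BL/6 strain, and the polyadenylated RNA of each mouse was sequenced as 1 library. Nupr1 encodes a stress-responsive chromatin protein, and the series title ties it to HSC quiescence and p53 signalling. No treatment, Cre line or reporter is named for either group. Age, sex, the surface markers of the sort and the deleted stretch of Nupr1 are not given in the labels.

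CDK inhibitors hold a cell before S phase. The Cip/Kip proteins p21 (Cdkn1a), p27 (Cdkn1b) and p57 (Cdkn1c) bind assembled cyclin and CDK complexes, whereas the INK4 proteins p18 (Cdkn2c) and p19 (Cdkn2d) bind CDK4 and CDK6 and keep D-type cyclins from activating them. In HSCs, p57 and p27 are known for keeping the cells out of cycle, and Cdkn1a is the best known transcriptional target of p53.

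Because paralogs can share reads, the coding stretches in which the members of each family were most alike are shown first. They come from the GENCODE M21 transcripts, bases are counted from the first base of the start codon, and capitals mark bases shared by all members of the family. In the Cip/Kip family the stretch spans coding bases 37 to 96 of 477 in Cdkn1a, 73 to 132 of 591 in Cdkn1b and 82 to 141 of 1044 in Cdkn1c, and 27 of its 60 bases (45%) were shared. In the INK4 family it spans coding bases 223 to 282 of 504 in Cdkn2c and 235 to 294 of 498 in Cdkn2d, and 40 of 60 bases (66.7%) were shared.
Cdkn1a: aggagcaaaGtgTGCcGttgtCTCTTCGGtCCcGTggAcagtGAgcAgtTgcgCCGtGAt
Cdkn1b: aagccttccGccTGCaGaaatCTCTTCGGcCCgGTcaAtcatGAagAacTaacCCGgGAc
Cdkn1c: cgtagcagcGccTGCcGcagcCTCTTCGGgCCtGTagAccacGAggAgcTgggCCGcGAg
Cdkn2c: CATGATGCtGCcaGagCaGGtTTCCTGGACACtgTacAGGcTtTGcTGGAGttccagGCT
Cdkn2d: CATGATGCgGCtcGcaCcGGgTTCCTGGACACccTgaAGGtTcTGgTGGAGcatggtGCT
The longest identical run between any 2 of the 5 coding sequences was 9 to 11 bases. Over whole transcripts it was 11 to 23 bases, the longest being between Cdkn1a and Cdkn1b. The sources used here give no read length.

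Cdkn1a is the member whose promoter carries a textbook p53 site, and Trp53, the gene of p53, differed between the genotypes (values below). The 250 bases before its upstream start site, chr17:29090729-29090978 on the plus strand (RefSeq, GRCm38.p6, the assembly of mm10), are shown with the match to the p53 response element in capitals.
Cdkn1a: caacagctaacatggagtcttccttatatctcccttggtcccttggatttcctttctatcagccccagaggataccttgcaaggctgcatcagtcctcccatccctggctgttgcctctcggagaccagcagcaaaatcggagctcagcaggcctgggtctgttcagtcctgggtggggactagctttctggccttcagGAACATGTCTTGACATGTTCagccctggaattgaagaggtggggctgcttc
The match lies 32 to 51 bases before the start site and has 1 mismatch to the consensus of the element. At most 1 mismatch was allowed, and 19 of 32851 mouse promoter windows of this length (0.0578%) held such a match. Of the members, 4 of 5 have a promoter in the table used, with 6 windows between them, and this was the 1 window with a match. The GC box GGGCGG, searched on both strands, was in 32.7% of all windows. It occurred 3 times before the start site of Cdkn2d, 3 times before the upstream start site of Cdkn2c, 2 times before the downstream start site of Cdkn1a and 1 time before the start site of Cdkn1b. A match is a description of these letters and not a measurement of binding.

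Reads per library ranged from 2296101 to 4769401, and the values below are normalised reads, that is, the authors' read counts per gene divided by 1 size factor per library. Nupr1 itself ranged from 134.0 to 318.2 in wild type and from 118.5 to 200.6 in the knockout group, so the targeted gene did not separate the groups (log2 difference -0.50, limma adjusted p = 0.433), and directions below are between libraries as labelled, called the wild type and the knockout group. Xist, transcribed from the inactive X chromosome of females, had a mean of 2.96 ± 5.91 in the wild type group and 126 ± 23.4 in the knockout group (SD, n = 4), so a difference in sex cannot be told apart from the genotype. Deviations of single genes from their mean followed GC content with Spearman correlations over genes of -0.30 to -0.14 in the wild type group and 0.15 to 0.30 in the knockout group. Wild type library 2 stood apart on the first principal component (25.6% of the variance). All 26 listed HSC identity genes were in the table, and 1 rose (Vwf, log2 difference 0.82) and 1 fell (Mllt3, -0.74). The share of all tested genes called in either direction was 3.8%. At an unadjusted limma p under 0.05 there were 12 of these 26, beside 19.7% of all genes. Vwf passed in 3 and Mllt3 in 1 of 8 fits with 1 library left out, and neither after the trend of values with GC content and transcript length was removed from each library (0.55 and -0.26, limma adjusted p = 0.281 and 0.657). Of the listed markers of other cells, 7 of 11 for megakaryocytes, 7 of 11 for erythroid cells, 1 of 10 for neutrophils, 3 of 9 for monocytes, 2 of 9 for B cells, 2 of 10 for T and NK cells, 4 of 9 for endothelial and stromal cells and 0 of 6 for mast cells had an entry. Summed megakaryocyte markers were 403 to 666 normalised reads in the wild type group and 943 to 1610 in the knockout group, where 3 of the 7 tested rose, and 1 of 5 tested erythroid markers rose. With the GC and length trend removed 0 of either list rose, in a fit that called 0.228% of all genes. The median log2 difference was then 1.95 for the megakaryocyte markers, against 2.14 before, and 0.63 for the erythroid markers, against 0.68. In the other lists 0 tested markers passed in either direction. Without wild type library 2, in a fit that called 8.15% of all genes, 1 neutrophil and 1 B cell marker fell. In that fit 3 megakaryocyte and 3 erythroid markers rose. The summed normalised reads of the other lists in wild type and knockout group were 983 to 2908 and 847 to 1445 for neutrophils (Prtn3 alone). They were 1644 to 3185 and 1425 to 2621 for monocytes, and 240 to 893 and 213 to 277 for B cells. For T and NK cells they were 1.39 to 275 and 71.5 to 133, and for endothelial and stromal cells 75.9 to 247 and 118 to 152. The part of all these markers in the results below was not tested. In bulk libraries, fewer cells of a type and less RNA per cell cannot be told apart.

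None of the 5 inhibitor genes passed the test between genotypes. The test was limma on log2 of the normalised reads plus 1, fitted to 10989 genes and called at a Benjamini-Hochberg adjusted p under 0.05, and it called 418 genes (3.8%). In estimate, Cdkn2d was higher in libraries labelled knockout. The other 4 of 5 were lower, beside 48.7% of all genes, each with a 95% interval that included 0. With the GC and length trend removed, again 0 of 5 passed, beside 0.228% of all genes, but the interval of Cdkn1c (-1.85 to -0.22) then left out 0. With wild type library 2 also left out, the intervals of Cdkn1a (-2.17 to -0.10), Cdkn1c (-1.78 to -0.09) and Cdkn2c (-2.80 to -0.07) left out 0, and again 0 of 5 passed after adjustment. At an unadjusted p under 0.05, 1 of 5 members passed before trend removal, beside 19.7% of all genes. With the trend removed it was 1 of 5, beside 1394 of 10989 genes. With wild type library 2 also left out it was 3 of 5, beside 1868 of 10838 genes. The 4 values of each genotype were without overlap in 0 of 5 members, beside 11.7% of all genes. The median log2 difference of the 5 members was -0.39, beside 0.03 over all genes tested, and it describes these libraries only.

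**Figure D1:**
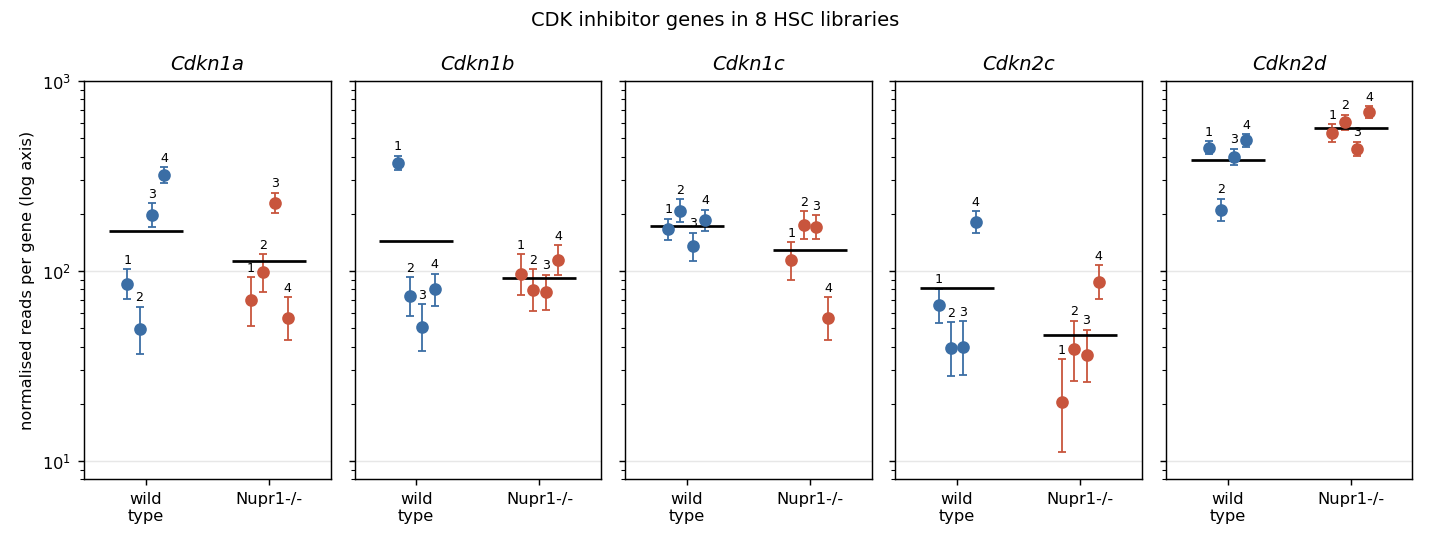
Normalised reads per gene (vertical log axis) of the 5 CDK inhibitor genes in the 4 wild type (blue) and 4 Nupr1-/- (red) libraries. Points are libraries labelled by replicate number, bars on them are exact Poisson 95% intervals for counting error only, and black lines are group means. The groups overlap in every panel, Cdkn1b of wild type library 1 (372.5) lies far above the other 7 values, and 3 of 4 Cdkn2d values of the knockout group lie above all wild type values.

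Cdkn1a (ENSMUSG00000023067.14), the p21 gene, is at chr17:29090976-29100727, plus strand (mm10, GENCODE M21). By replicate number, normalised reads were 85.6, 49.3, 197.4 and 319.7 (wild type) and 69.998, 98.5, 228.8 and 56.5 (labelled knockout). Wild type libraries 3 and 4 and knockout library 3 were high and the other 5 were all below 100, so that each genotype held both kinds. The means were 163 ± 122 in wild type and 113 ± 78.9 in the knockout group (SD, n = 4). The log2 difference was -0.39 ± 0.56 (SE), with a 95% interval of -1.56 to 0.78 (limma adjusted p = 0.740, exact permutation p = 0.657). Without wild type library 4 the difference was 0.045, so its direction rested on that library. It was -0.70 with the GC and length trend removed, and -1.13 with wild type library 2 also left out (limma adjusted p = 0.632 and 0.246). Its spread within groups was larger than that of 93.0% of the 500 genes nearest to it in mean value. An antisense gene, AC167363.2, overlaps 273 exon bases of Cdkn1a, and Nextera XT libraries carry no strand information, so reads there cannot be assigned to either gene.

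Cdkn1b (ENSMUSG00000003031.14), the p27 gene, is at chr6:134920401-134925513, plus strand, with no exon shared with another gene. Normalised reads by replicate number were 372.5, 73.9, 50.8 and 80.1 (wild type) and 96.2, 79.8, 77.7 and 114.8 (labelled knockout). A single library, wild type 1, was high. Its 535 reads give an exact Poisson 95% interval of 342 to 405 normalised reads, which covers counting error only and lies above the other 7 values. The knockout group was tight, at 92.2 ± 17.2 (SD, n = 4), against 144 ± 153 in wild type. The log2 difference was -0.18 ± 0.53 (SE), with a 95% interval of -1.30 to 0.94 (limma adjusted p = 0.887, exact permutation p = 0.943). Without wild type library 1 it was 0.44, and with the GC and length trend removed it was 0.22. On the recovered reads it was -0.66 with edgeR (adjusted p = 0.578) and -0.65 with DESeq2. Cdkn1b has the lowest transcript GC content of the 5 (43.1%, against 54.4% to 59.4% in the others).

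Cdkn1c (ENSMUSG00000037664.13), the p57 gene, which is expressed from the maternal copy, is at chr7:143458339-143461050, minus strand. Its normalised reads, again by replicate number, were 166.4, 207.9, 134.6 and 185.2 (wild type) and 113.7, 174.6, 171.4 and 56.5 (labelled knockout). Knockout library 4 had the lowest value and knockout library 1 the next lowest, while knockout libraries 2 and 3 lay within the wild type range. The means were 174 ± 31.0 and 129 ± 55.9 (SD, n = 4). The log2 difference was -0.54 ± 0.40 (SE), with a 95% interval of -1.37 to 0.30 (limma adjusted p = 0.482, exact permutation p = 0.229). It was negative in all 21 alternative fits, from -1.03 with the GC and length trend removed (limma adjusted p = 0.275) to -0.19 without knockout library 4. The antisense gene Gm44732 overlaps 625 of its exon bases, and reads there cannot be assigned to either gene.

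Of the INK4 members, Cdkn2c (ENSMUSG00000028551.14), the p18 gene, is at chr4:109660876-109667189, minus strand, with no exon shared with another gene. The libraries had 66.1, 39.4, 39.9 and 181.4 (wild type) and 20.4, 38.7, 36.2 and 88.0 normalised reads (labelled knockout). Library 4 was the highest of its group in both genotypes, and libraries 2 and 3 of both genotypes lay close together. The lowest value, in knockout library 1, rests on 14 reads (exact Poisson 95% interval 11.2 to 34.3 normalised reads). Cdkn2c was thus the member of lowest depth, and its highest library exceeded its lowest 8.89-fold. The means were 81.7 ± 67.6 and 45.8 ± 29.2 (SD, n = 4). The log2 difference was -0.71 ± 0.65 (SE), with a 95% interval of -2.08 to 0.65 (limma adjusted p = 0.580, exact permutation p = 0.343). It ranged from -1.08 to -0.23 when 1 library was left out, the last without wild type library 4. It was -1.21 with the GC and length trend removed, and -1.43 with wild type library 2 also left out (limma adjusted p = 0.451 and 0.267).

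Cdkn2d (ENSMUSG00000096472.2), the p19 gene, is at chr9:21288410-21291407, minus strand, with no exon shared with another gene. The libraries had 444.9, 209.9, 398.8 and 487.5 (wild type) and 533.7, 608.5, 439.99 and 687.0 normalised reads (labelled knockout). Knockout libraries 1, 2 and 4 lay above all wild type values and knockout library 3 within their range, so that 14 of 16 pairs had the knockout library higher. The means were 385 ± 122 in wild type and 567 ± 105 in the knockout group (SD, n = 4). The log2 difference was 0.61 ± 0.27 (SE), or 1.52-fold, with a 95% interval of 0.04 to 1.18. It passed an unadjusted threshold (limma p = 0.0378) but not the adjusted one (limma adjusted p = 0.223, exact permutation p = 0.0857). With 70 assignments of 4 libraries against 4, the smallest exact p is 0.0286. The difference was positive in all 21 alternative fits, but it was 0.34 without wild type library 2, which has the lowest value. It was 0.28 with the GC and length trend removed, and 0.04 with both changes made.

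**Figure D2:**
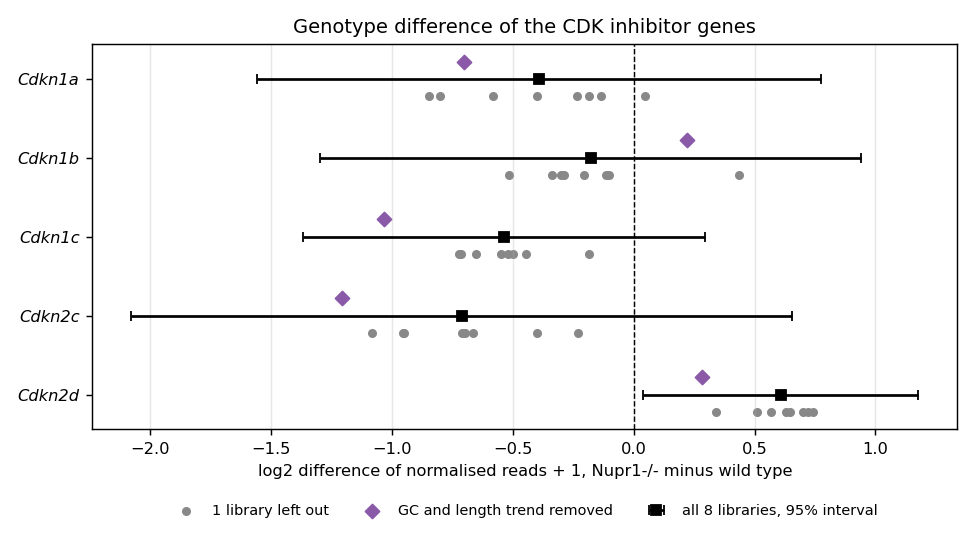
Log2 difference of normalised reads plus 1, Nupr1-/- minus wild type (horizontal axis), for each member. Black squares with bars are estimates from 8 libraries with 95% intervals, grey points leave out 1 library each, and violet diamonds have the trend with GC content and transcript length removed. The bar of Cdkn2d (0.04 to 1.18) is the one that does not reach 0, and the estimates of Cdkn1a and Cdkn1b cross 0 when wild type library 4 or wild type library 1 is left out.

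The high libraries differed from member to member. The highest value was in wild type library 4 for Cdkn1a and Cdkn2c, wild type library 1 for Cdkn1b, wild type library 2 for Cdkn1c and knockout library 4 for Cdkn2d. Knockout library 4 also had the lowest Cdkn1c, and wild type library 2 the lowest Cdkn1a and Cdkn2d. The highest library exceeded the lowest 6.49-fold for Cdkn1a, 7.33-fold for Cdkn1b, 3.68-fold for Cdkn1c and 3.27-fold for Cdkn2d. Against the 500 genes nearest in mean value, the spread within groups lay at percentile 93.0 for Cdkn1a, 87.4 for Cdkn1b, 73.0 for Cdkn2d, 59.4 for Cdkn2c and 49.2 for Cdkn1c. Cdkn2d, the most abundant member, had the smallest fold range over the libraries. Within groups, the p21 and p27 transcripts, Cdkn2d and, less so, Cdkn2c varied more than most genes of their level.

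Levels of different genes were compared as normalised reads per kb of the longest annotated transcript. Cdkn2d was the highest of the 5 in 8 of 8 libraries, at 335 ± 101 (SD over 8 libraries). Cdkn1c followed at 79.6 ± 25.3, Cdkn1a at 66.5 ± 47.5, Cdkn1b at 26.0 ± 22.9 and Cdkn2c at 25.8 ± 21.01. Cdkn2c was lowest in 5 libraries and Cdkn1b in the other 3.

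The neighbouring pairs compared here follow the order of mean level in these same 8 libraries, so they were picked from the values tested. The adjustment over 4 pairs does not allow for that choice. The step from Cdkn2d to Cdkn1c was 4.24-fold and had this direction in 8 of 8 libraries (exact sign-flip permutation p = 0.0078, the smallest that 8 libraries can give, and 0.0313 adjusted over 4 neighbouring pairs). It was 2.85-fold in the wild type group and 6.30-fold in the knockout group, a difference that did not pass its test (exact permutation p = 0.114, from the ratio of these genes below). The other neighbours could not be separated. Cdkn1c was above Cdkn1a by 0.48 ± 0.96 on the log2 scale (SD over libraries), in 5 of 8 libraries (exact adjusted p = 0.260). Cdkn1a was above Cdkn1b by 1.33 ± 1.504, in 7 of 8 libraries (exact adjusted p = 0.109), and Cdkn1b and Cdkn2c differed by 0.02 ± 1.14, with Cdkn1b higher in 5 of 8 (exact adjusted p = 0.977). The transcript length used matters for Cdkn1a, whose annotated exons add up to 3553 bases against 2080 in its longest transcript. With the summed exons as length, Cdkn1c was above Cdkn1a in 8 of 8 libraries by 1.15 ± 0.96 (exact adjusted p = 0.0156).

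**Figure D3:**
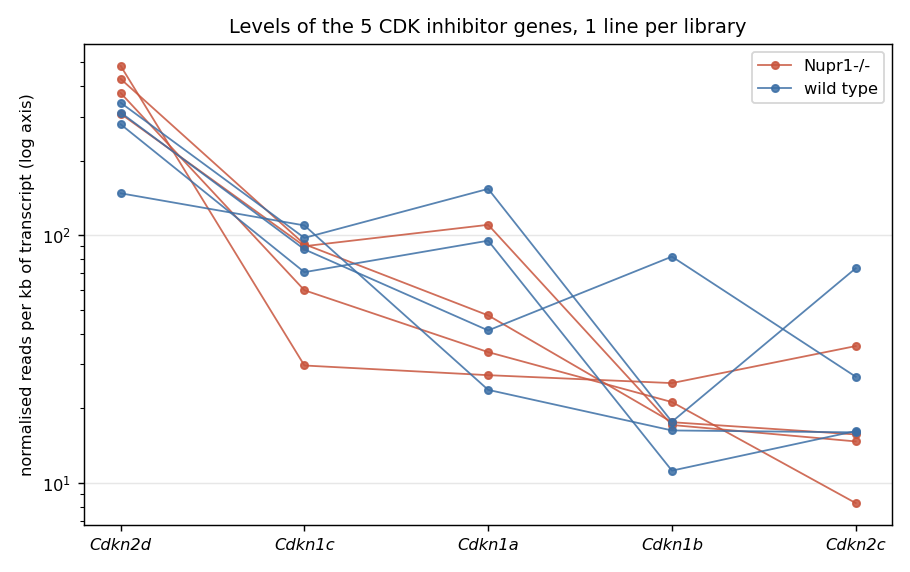
Normalised reads per kb of transcript (vertical log axis) of the 5 members in order of mean level, with 1 line per library (red, Nupr1-/-; blue, wild type). Each line starts at its highest point with Cdkn2d, and the lines cross among the other 4 genes.

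The make-up of the summed level per kb of the 5 genes followed from this. Cdkn2d made up 56.9%, 47.2%, 59.2% and 50.03% of it by replicate number in the wild type group, and 75.3%, 71.3%, 57.1% and 80.4% in the knockout group. Knockout library 3 lay between wild type libraries 1 and 3, and the other 3 knockout libraries were above all wild type libraries. The mean shares were 53.3% ± 5.66 and 71.0% ± 9.99 (SD, n = 4). Cdkn1c made up 20.02% ± 9.99 in wild type and 12.2% ± 5.23 in the knockout group, and Cdkn1a 14.4% ± 7.98 and 9.88% ± 7.11. Cdkn1b and Cdkn2c had the smallest shares, with group means of 3.23% to 6.25% each. These shares add to a fixed total, so a higher share of 1 member lowers the others.

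**Figure D4:**
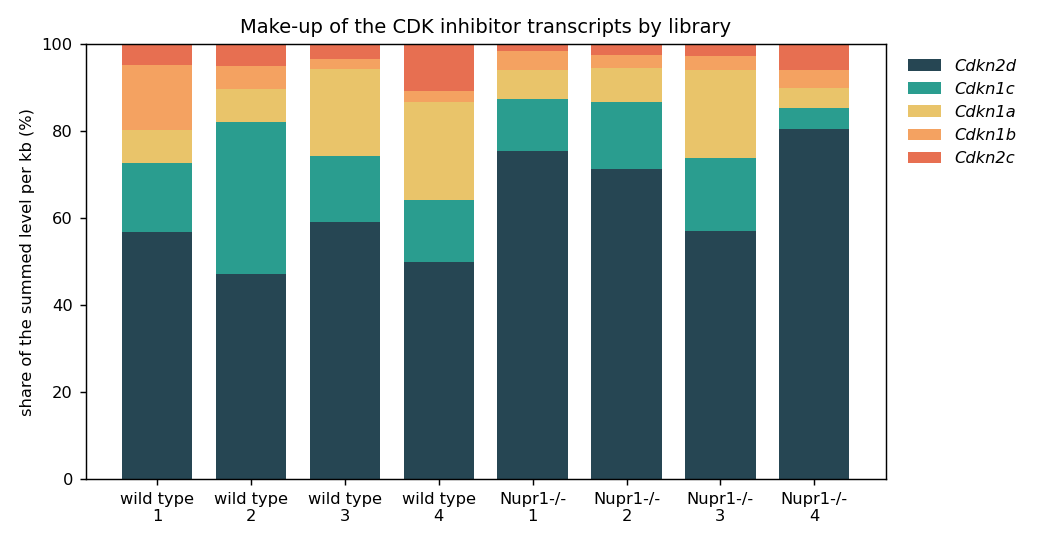
Share (%) of each member in the summed normalised reads per kb of the 5 genes, 1 bar per library, 4 wild type and 4 Nupr1-/-. Cdkn2d fills 47.2% to 59.2% of the wild type bars and 57.1% to 80.4% of the Nupr1-/- bars.

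Log2 ratios between paralogs within a library were taken of normalised reads plus 1, and compared for all 10 pairs. The lowest unadjusted exact permutation p was 0.0571, and 0.571 after adjustment over the 10 pairs. This test could not call a single pair, since the smallest exact p of 0.0286 becomes 0.286 after adjustment, so the ratios are given as values. The 3 ratios with the lowest p all had Cdkn2d as denominator, as does every pair that holds it. Each difference of a ratio equals the difference between the estimates of its genes. Cdkn2d was the only member with a positive estimate, so these ratios repeat the member results. The log2 ratio of Cdkn2c to Cdkn2d, the INK4 pair, was -2.73, -2.38, -3.29 and -1.42 by replicate number in the wild type group and -4.64, -3.94, -3.57 and -2.95 in the knockout group. Knockout libraries 1 to 3 lay below all wild type values and knockout library 4 within them. The difference in means was -1.32. For Cdkn1c over Cdkn2d it was -1.14 (exact permutation p = 0.114), and for Cdkn1a over Cdkn2d -0.9997 (exact permutation p = 0.171). Among the Cip/Kip members the differences were smaller, from -0.21 for Cdkn1a over Cdkn1b to 0.36 for Cdkn1b over Cdkn1c. With the GC and length trend removed, Cdkn1c over Cdkn2d differed by -1.32 without overlap of the groups. The exact permutation p was 0.0286, the smallest possible, and 0.286 after adjustment. The Cip/Kip differences were then not all smaller, at 1.25 for Cdkn1b over Cdkn1c, -0.92 for Cdkn1a over Cdkn1b and 0.33 for Cdkn1a over Cdkn1c. Over Cdkn2d, the difference was then -1.49 for Cdkn2c, -0.99 for Cdkn1a and -0.06 for Cdkn1b.

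The remaining genes of this pathway were taken from lists. Of all 10989 genes tested 3.8% were called, with 185 higher and 233 lower in the knockout group. Of the other CDK inhibitor genes listed, Cdkn3 was tested, at 0.76 to 22.7 normalised reads in wild type and 4.42 to 17.6 in the knockout group (limma adjusted p = 0.765). Cdkn2a and Cdkn2b had no entry in the gene table and so have no values here. Among the kinases and cyclins that the inhibitors act on, 1 of 13 rose, 1 fell and 11 did not pass (median log2 difference 0.09, against 0.03 over all genes tested). The gene that fell was Ccnd1, cyclin D1, which pairs with CDK4 and CDK6. It had 238.1, 183.3, 191.4 and 194.2 normalised reads in wild type and 89.0, 28.7, 46.8 and 66.7 in the knockout group, with no overlap (log2 difference -1.90 ± 0.43 SE, limma adjusted p = 0.0234). The gene that rose was Cdk6, the kinase bound by p18 and p19. It had 56.4, 339.0, 110.7 and 92.2 normalised reads in wild type and 447.7, 226.9, 511.6 and 461.1 in the knockout group, where wild type library 2 lay above knockout library 2 (log2 difference 1.72 ± 0.44 SE, limma adjusted p = 0.0397). Of 8 fits with 1 library left out, Ccnd1 passed in 3 and Cdk6 in 1, and neither passed with the GC and length trend removed (limma adjusted p = 0.0512 and 0.0668). Their log2 differences were then -2.05 and 1.98, no smaller than before.

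Of the pocket proteins and E2F factors, which act downstream of these kinases, 1 of 13 rose, 0 fell and 12 did not pass. The share of all genes called was 3.8%. E2f1, an activator of S phase genes, rose from 76.7 ± 46.3 to 237 ± 55.3 normalised reads without overlap (SD, n = 4, limma adjusted p = 0.0305), in 2 of 8 fits with 1 library left out and not with the GC and length trend removed (0.232). Of the 20 genes of cycling cells, 0 passed in either direction with limma, 5 were below an unadjusted p of 0.05 (beside 19.7% of all genes), 17 had a positive difference (beside 51.3%) and the median was 0.39. Without wild type library 2, 4 of these 20 rose and 0 fell, beside 8.15% of all genes in either direction (454 of 10838 rose). Their summed values were 5401, 12568, 9806 and 10452 normalised reads by replicate number in the wild type group and 11128, 10913, 12920 and 16428 in the knockout group. Wild type library 1, with the high Cdkn1b value, had the lowest sum, and knockout library 4, with the low Cdkn1c value, the highest. Knockout library 4 also had the highest Cdkn2d value. Over all libraries Spearman's rho with this sum was -0.05 for Cdkn1b and -0.14 for Cdkn1c, and neither relation passed.

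Of the genes that act on the turnover of the inhibitor proteins, 0 of 19 rose, 1 fell and 18 did not pass, beside 3.8% of all genes called. Pim1, a kinase that phosphorylates p21 and p27, fell from 839 ± 526 to 144 ± 36.4 normalised reads (SD, n = 4, log2 difference -2.37 ± 0.36 SE, limma adjusted p = 0.00514). It passed in 8 of 8 fits with 1 library left out and with the GC and length trend removed. Skp2, Cks1b and Cul1, parts of the ligase complex that marks p27 for degradation, were among the 18. Of 28 tested transcription and chromatin regulators of the inhibitors, 1 rose, 1 fell and 26 did not pass (median 0.05), beside the same 3.8%.

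Trp53 was the regulator that fell, from 548 ± 75.0 to 99.4 ± 28.2 normalised reads without overlap (SD, n = 4, log2 difference -2.49 ± 0.31 SE, limma adjusted p = 0.00155), and it passed in 8 of 8 fits with 1 library left out. Set beside it, the difference of Cdkn1a was -0.39, with an interval of -1.56 to 0.78. Of 17 other tested direct p53 targets, 1 fell (Plk2, log2 difference -1.73, limma adjusted p = 0.0379), 0 rose and 16 did not pass, with a median of 0.04. Of all genes 3.8% were called. Plk2 passed in 2 of 8 fits with 1 library left out and not with the GC and length trend removed, where its log2 difference was -1.70 (limma adjusted p = 0.129). The regulator that rose was Gfi1b, a transcriptional repressor of erythroid and megakaryocyte development, from 325 ± 84.5 to 742 ± 176 normalised reads without overlap (SD, n = 4, limma adjusted p = 0.0182), in 6 of 8 fits with 1 library left out but not with the GC and length trend removed (0.201). In the imprinted domain of chromosome 7 that holds Cdkn1c, 0 of 13 genes passed in either direction with limma and 2 were below an unadjusted p of 0.05, a smaller share than the 19.7% of all genes. As values, these were Tspan32, with a log2 difference of 0.59, and Kcnq1ot1, the non-coding RNA that silences Cdkn1c on the paternal copy, with 1.10 (limma adjusted p = 0.0761 and 0.156).

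**Figure D5:**
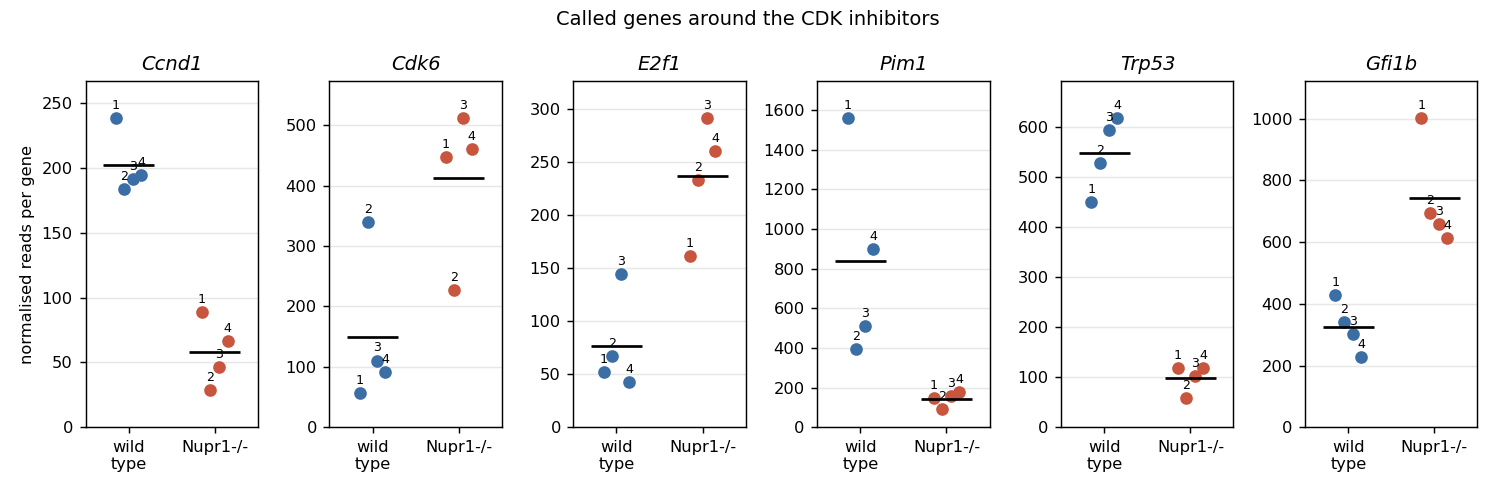
Normalised reads per gene (vertical axis from 0, scaled for each gene) of the 6 genes that passed the test in the lists of CDK partners, E2F factors, turnover genes and regulators, in wild type (blue) and Nupr1-/- (red) libraries. Points are libraries labelled by replicate number and black lines are group means. Cdk6 is the 1 gene of the 6 whose groups overlap.

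The nearest tested protein-coding genes on either side of each member did not pass the test, with 1 exception, beside 3.8% of all genes called. Rnf11, 176 kb from Cdkn2c, fell with a log2 difference of -1.28 ± 0.34 (SE, limma adjusted p = 0.0402), while Faf1 on the other side of Cdkn2c had 0.37. Kri1, whose end lies 0.441 kb from Cdkn2d, differed by 0.57 ± 0.41 (SE, limma adjusted p = 0.475), close to the 0.61 of Cdkn2d. The neighbours of Cdkn1a were Srsf3 (-0.09) and Ppil1 (0.57), those of Cdkn1b Gpr19 (1.11) and Apold1 (0.74), and those of Cdkn1c Tssc4 (0.32) and Slc22a18 (0.79), all as log2 differences.

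The genes whose log2 values followed each member most closely over the 8 libraries were picked as the highest Pearson r among 6790 genes with a mean of at least 100, and are given as a description. They were Slc29a3 (0.97) and Pde4b (0.96) for Cdkn1a, and Zmat2 (0.98) and Aimp1 (0.94) for Cdkn1b. For Cdkn1c they were Frmd4a (0.96) and Taf1b (0.93), for Cdkn2c Pwwp2a (0.95) and Gm9320 (0.95), and for Cdkn2d Smyd3 (0.97) and H2-Ke6 (0.97). No gene was picked for more than 1 member. All values share the library's size factor, depth and GC trend.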

How the data were processed

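Polyadenylated RNA of sorted HSCs from 8 mice was made into Nextera XT libraries, per the labels' protocols. The submitters' processing notes name HISAT2, featureCounts, Subread, DESeq2, bcl2fastq and the build mm10, without versions. The values deposited by the authors are a normalised signal. Each library's values equal whole reads over a single size factor, since 100% of values were whole multiples of 1 step per library (tolerance 0.001). These whole reads served the count tests. The entry without a name held at most 0.00109% of a library.

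Values were tested as log2(value + 1), for genes of at least 10 in at least 4 libraries, with limma 3.58.1 (trend, robust) in R 4.3.3. Replicates are separate mice. Alternatives were edgeR 4.0.16, DESeq2 1.42.0, limma-voom, upper quartile scaling, other pseudocounts and filters, each library left out, a replicate block, and removal of the trend with GC content and length. The scripts were tested on simulated data. Libraries of the same replicate number showed no shared deviations between genotypes (correlations -0.06 to 0.01). Such correlations cannot show whether the mice were paired by litter or handling.

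Named were the 5 members, called genes of each list (at most 6) or else the 2 of smallest p, the 2 genes most like each member, the nearest tested protein-coding gene on each side, Nupr1 and Trp53. From each list of other cells the 2 markers of highest mean were also picked, and not all are printed. Xist and the Skp2, Cks1b and Cul1 group were named outside this rule after their values were seen. The members and lists were chosen with earlier results of these data known. Of 11853 distinct symbols, 11717 matched GENCODE M21, 454 through a synonym. Promoters are from RefSeq. Only genes above 0 in at least 3 libraries are in the table.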

Additional observations from a re-analysis of the deposited data

Results flagged for a closer look

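Cdkn1b in wild type library 1 was at 372.5 normalised reads, far from the 50.8 to 80.1 of the other 3 wild type mice. The gap to the nearest value was 0.909 of the group's range, above Dixon's 95% critical value for 4 samples. It was the 1 of 10 groups examined (5 genes in 2 genotypes) that lay beyond this value. For normally distributed values chance gives about 1 in 20 in each group, and more often at least 1 over 10 groups. The rule was applied to normalised reads and not to their log2, the scale of the limma tests. On a log2 scale the high value lies less far out, so the flag covers normalised reads only. The next was Cdkn2c in wild type library 4 (181.4, gap 0.812 of the range). DESeq2 returned no p for Cdkn1b. What sets this library apart was not tested.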

How the results depend on the processing

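No member passed in any of the fits. Of the alternatives, the direction held in 20 of 21 for Cdkn1a, 17 of 21 for Cdkn1b, 21 of 21 for Cdkn1c and Cdkn2d and 20 of 20 for Cdkn2c, which a filter of at least 50 removed. The reversed values were 0.045 for Cdkn1a without wild type library 4 and, for Cdkn1b, 0.44 without wild type library 1, 0.22 with the GC and length trend removed, 0.22 with that and the replicate block, and 0.11 with that and without wild type library 2. With 1 library left out the log2 difference ranged from -0.85 to 0.045 for Cdkn1a, -0.51 to 0.44 for Cdkn1b, -0.72 to -0.19 for Cdkn1c, -1.08 to -0.23 for Cdkn2c and 0.34 to 0.74 for Cdkn2d. The count of 418 called genes was 775 with DESeq2, 48 to 883 with 1 library left out, 277 with the replicate block, 25 with the GC and length trend removed, 31 with that and the block, and 256 with that and without wild type library 2. The cause was not tested. The block changed no call on a member. The count of neighbouring levels that differ was 2 with summed exons as length and 2 with an added value of 5, where Cdkn1a was above Cdkn2c, against 1. It was 0 with any 1 library left out, when 7 libraries are too few for a single pair to pass after adjustment. For the 10 paralog ratios a count of 0 carries no information, since at least 6 pairs at the smallest exact p would be needed to pass, and under the block the smallest exact p is 0.125. Depth limits Cdkn2c most, with 14 to 240 reads per library.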

Other observations

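The summed cycling list was set against each member over the 8 libraries (log2 scale, 5 relations). For Cdkn1b Pearson's r was -0.66 (exact permutation p = 0.242, adjusted 0.606) and Spearman's rho -0.05, and without wild type library 1 and knockout library 4, the libraries farthest from the median, r was 0.42. For Cdkn1c r was -0.44 (exact permutation p = 0.198, adjusted 0.606), rho was -0.14, and r was 0.44 without those libraries. Both relations rested on those libraries. For Cdkn1a, Cdkn2c and Cdkn2d r was -0.13, -0.07 and 0.10 (adjusted exact permutation p = 0.776 for each). None of the 5 passed.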
